A study of Mus musculus with 6 samples.

Results

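The insulin-like growth factor (IGF) axis was followed in tumor spheres through its 2 ligands (Igf1, Igf2), its 2 receptors (Igf1r, Igf2r) and 6 binding proteins (Igfbp2, Igfbp3, Igfbp4, Igfbp5, Igfbp6 and Igfbp7). The members were all non-control probes whose RefSeq accession belongs to one of these 10 genes, which gave 14 probes among the 55681 on the array. Spheres, floating clusters of cells in serum-free culture, were grown from mouse mammary tumors that carried FRS2beta in the hetero state (hetero, 3 arrays) or as a knock-out (knockout, 3 arrays). Both genotypes were grown in DMEM/F12 with B27, 20 ng/mL of EGF, 20 ng/mL of bFGF and 2 mg/mL of heparin. Total RNA was labelled with Cy3 and hybridised to 1 one-colour Agilent array per sample. The labels give no age, strain or driver of the tumors and do not say whether the 3 replicates came from separate mice, tumors or cultures, so the p-values cover the spread among these 6 arrays, which may be technical. FRS2beta, encoded by Frs3, is a docking protein for receptor tyrosine kinases. The comparison asks how expression of the spheres differs between the genotypes.

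IGF1 and IGF2 are secreted peptides that activate the tyrosine kinase IGF1R, which signals through insulin receptor substrates to PI3K and AKT. IGF2R has no kinase and takes IGF2 to the lysosome, while the binding proteins hold the ligands outside the cell until proteases release them. In the mammary gland IGF1 from the stroma carries much of the effect of growth hormone on ductal growth.

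Hetero arrays had a 75th percentile of 404 to 416 and knockout arrays one of 465 to 487, and 60.4% to 61.3% and 60.5% to 69.6% of their probes were well above background. After scaling, the correlation across probes was 0.993 to 0.997 within a genotype and 0.973 to 0.979 between genotypes. The number of arrays, 3 per genotype, limits the precision. Frs3, the targeted gene, has 1 probe, with scaled log2 signals of -7.30, -4.64 and -6.01 in hetero and -7.88, -7.95 and -7.36 in knockout, well above background on 1 of 3 hetero arrays and on 0 of 3 knockout arrays. It was therefore not tested and does not check the labels. No slide column (4 in all) held both genotypes, so column and genotype cannot be told apart.

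The start regions of the 4 members with the largest called changes are shown here, since Igf1 and Igfbp4 were lower and Igfbp2 and Igfbp7 higher in knockout spheres. They come from RefSeq on assembly GRCm38.p6 and span 250 bases before to 50 bases after a transcript start, 5′ to 3′. Of the 10 members, all 10 had such a window, 14 windows in all. Capitals mark TATAAA (the TATA box core) and GGGCGG (the GC box, an Sp-family motif), searched on both strands. A further motif, TTCNNNGAA, the site form of STAT5, was searched in the same way and is absent from these letters in all 14 windows.
Igf1 (chr10:87860861-87861160, plus strand): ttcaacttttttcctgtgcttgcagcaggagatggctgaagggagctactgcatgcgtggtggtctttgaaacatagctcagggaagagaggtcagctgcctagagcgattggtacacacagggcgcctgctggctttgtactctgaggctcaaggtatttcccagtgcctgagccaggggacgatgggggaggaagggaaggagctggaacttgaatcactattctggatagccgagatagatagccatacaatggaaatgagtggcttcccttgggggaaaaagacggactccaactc
Igfbp4 (chr11:99040994-99041293, plus strand): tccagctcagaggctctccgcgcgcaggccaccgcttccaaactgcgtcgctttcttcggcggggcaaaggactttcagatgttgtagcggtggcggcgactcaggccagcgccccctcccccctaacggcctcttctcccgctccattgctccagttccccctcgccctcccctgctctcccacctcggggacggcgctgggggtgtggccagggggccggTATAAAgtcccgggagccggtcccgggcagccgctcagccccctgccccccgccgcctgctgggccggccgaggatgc
Igfbp2, the first of its 2 starts (chr1:72824230-72824529, plus strand): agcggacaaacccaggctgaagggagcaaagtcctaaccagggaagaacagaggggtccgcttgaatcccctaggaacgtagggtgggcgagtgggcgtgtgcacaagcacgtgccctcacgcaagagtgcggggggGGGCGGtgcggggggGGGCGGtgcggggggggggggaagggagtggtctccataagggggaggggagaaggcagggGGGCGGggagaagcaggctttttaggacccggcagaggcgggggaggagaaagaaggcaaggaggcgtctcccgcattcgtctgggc
Igfbp7 (chr5:77407996-77408295, minus strand): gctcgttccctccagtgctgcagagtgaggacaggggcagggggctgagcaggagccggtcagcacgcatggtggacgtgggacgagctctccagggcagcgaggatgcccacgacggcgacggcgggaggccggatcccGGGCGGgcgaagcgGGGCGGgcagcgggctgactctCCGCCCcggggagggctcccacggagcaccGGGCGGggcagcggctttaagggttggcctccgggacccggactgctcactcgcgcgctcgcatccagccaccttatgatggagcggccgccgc

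The Igf1 window held no match and had a GC content of 52.3%. The Igfbp4 window, with a GC content of 71.3%, held TATAAA with its first base at -28 from the start and no GC box. The GC box stood 3 times in the Igfbp2 window shown, at -113, -98 and -37 (GC content 67.0%), and 4 times in the Igfbp7 window, at -110, -96, -74 and -44 (GC content 73.3%). The window at the other Igfbp2 start held no match (GC content 57.3%). Among the other members the GC box was found 2 times before Igf1r, 3 times before Igf2r and in 2 of the 4 Igf2 windows. TATAAA stood at -148 before Igfbp6, on the strand opposite to that gene. Of 32851 windows of this length, 13.6% held TATAAA, 35.7% GGGCGG and 8.3% TTCNNNGAA. These matches describe the letters and do not show a bound site.

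Igfbp4 and Igf1 RNA was lower in knockout spheres, 5.07-fold and 2.83-fold, and Igfbp2 and Igfbp7 RNA was higher, 1.85-fold and 1.75-fold. Igf1r, Igf2r, Igfbp3 and Igfbp6 were lower by 1.13-fold to 1.26-fold on the scale used, and the values of these 4 were above 0 when arrays were scaled to spike-in controls. Igf2 and Igfbp5 did not pass the test. Values are log2 signals minus the 75th percentile of their array, called scaled log2 signals here, and a fold change is knockout over hetero. The level of one gene's probe is not set against that of another gene, because probes differ in brightness for the same amount of RNA.

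All 14 member probes were well above background on all 6 arrays, and the genotypes did not overlap on any of the 14, which is read against 58.9% of all 35442 probes tested. Of the 14 probes, 12 passed an adjusted p of 0.05 in limma, 3 higher and 9 lower in knockout, where 47.0% of all probes passed, 19.4% higher and 27.6% lower. With each gene represented by its brightest probe, 8 of 10 members passed, 2 higher and 6 lower, against 55.7% of 15847 genes, 25.7% higher and 30.0% lower. The median log2 fold change was -0.22 over the 10 members and -0.03 over all genes. A called change of at least 2-fold was found for 2 members, Igf1 and Igfbp4, and for 9.99% of all genes.

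The direction of small changes depended on the scaling. Scaling to 7 spike-in probes moved the median of all genes by 0.42 on the log2 scale and split the called genes into 11218 higher and 1195 lower, in place of 4080 and 4747, and the called probes into 21364 and 1973, in place of 6871 and 9772. The called members then split into 6 higher and 2 lower, Igf1 and Igfbp4. Quantile scaling gave 3 members higher and 5 lower, and normexp background correction left the members at 2 and 6 while splitting all called probes into 6221 and 14074. Changes are therefore relative to the bulk of genes on an array.

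**Figure D1:**
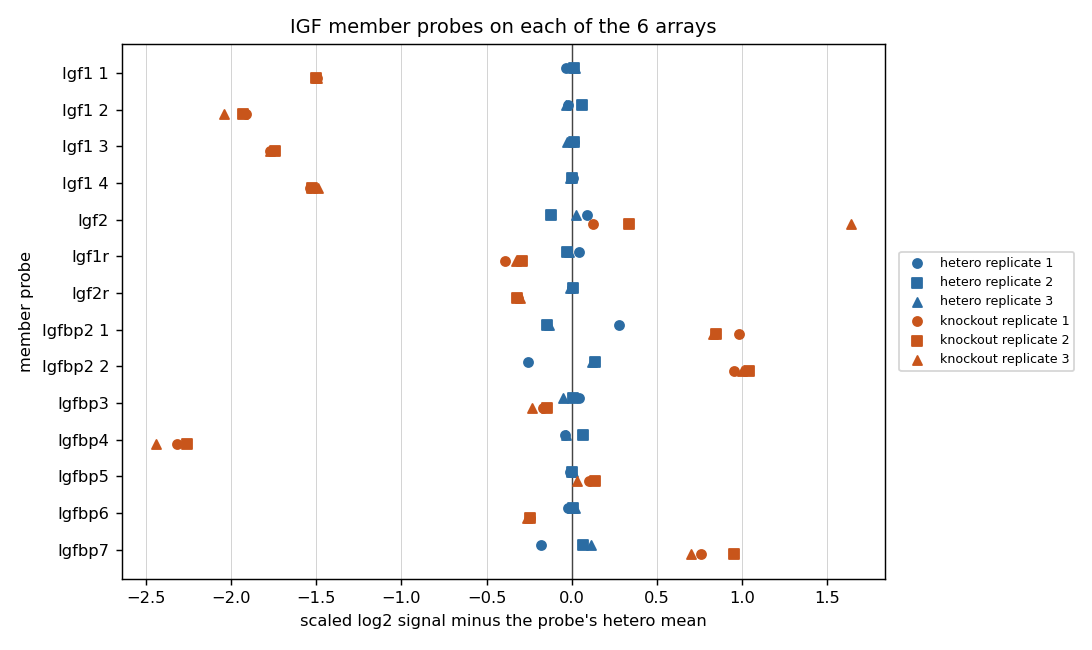
Scaled log2 signal of each of the 14 member probes on each of the 6 arrays, as the difference from that probe's mean over the 3 hetero arrays (horizontal axis), with hetero arrays in blue and knockout arrays in orange. The means of the 3 knockout arrays lie 1.50 to 2.34 below the hetero mean for Igf1 (4 probes) and Igfbp4, and knockout replicate 3 stands apart for Igf2.

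Among the ligands, Igf1 was measured by 4 probes to the same RefSeq transcript, each spotted 2 times. On the brightest, A_55_P2031631, the scaled log2 signal was 4.57, 4.62 and 4.62 on hetero arrays 1 to 3 and 3.11, 3.103 and 3.11 on knockout arrays 1 to 3. The groups were 1.47 apart at their nearest arrays. The difference was -1.50 ± 0.03 (SE, n = 3 each, 95% interval -1.57 to -1.43, limma adjusted p = 3.42e-06), or 2.83-fold lower.

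The second Igf1 probe, A_55_P2031636, read 1.28, 1.37 and 1.27 on the hetero arrays and -0.61, -0.62 and -0.74 on the knockout arrays. Its difference was -1.96 ± 0.05 (adjusted p = 8.83e-06), 3.90-fold lower. A_55_P2085974 read 4.59, 4.59 and 4.55 against 2.80, 2.84 and 2.81, a difference of -1.76 ± 0.03 (adjusted p = 2.45e-06) or 3.39-fold lower. All 3 hetero arrays were above all 3 knockout arrays on every Igf1 probe. A_55_P2085984 read 4.26, 4.26 and 4.25 against 2.72, 2.73 and 2.76, 2.86-fold lower with a difference of -1.52 ± 0.03 (adjusted p = 2.93e-06).

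All 4 Igf1 probes were lower in knockout, by amounts that were compared between probes. Taken within each array, A_55_P2031636 was 3.25 to 3.35 log2 units dimmer than A_55_P2031631 on hetero arrays and 3.71 to 3.84 dimmer on knockout arrays, a shift of -0.46. For A_55_P2085974 the shift was -0.26, with the groups again apart. In both cases the exact two-sided permutation test gave p = 0.1, the smallest that 3 against 3 arrays allow, and 0.15 after adjustment over the 3 probes compared. For A_55_P2085984 the shift was -0.02 and the groups overlapped (exact permutation p = 0.6, adjusted 0.6). The spread of Igf1 between arrays of a genotype, a pooled SD of 0.02 for the mean of 2 spots of A_55_P2031631, was no larger than the spread between spots of that probe on an array, 0.03.

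**Figure D2:**
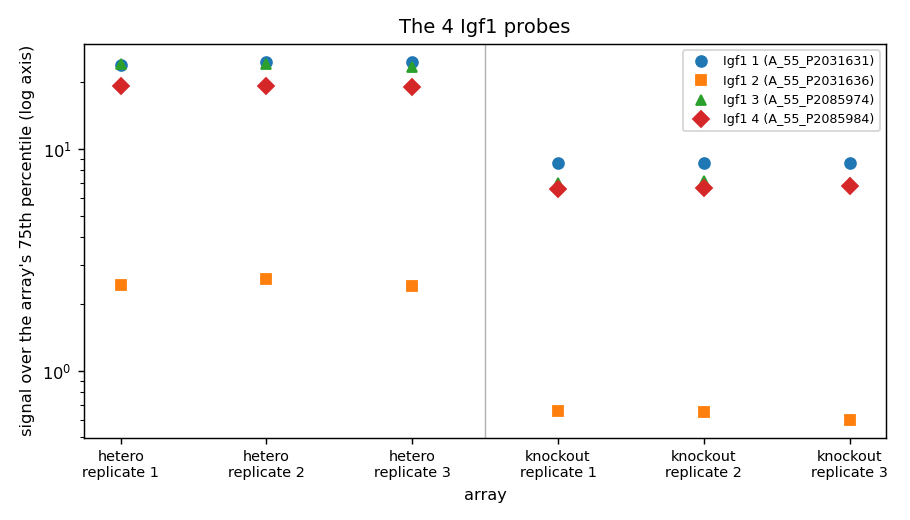
Signal of the 4 Igf1 probes as a multiple of the 75th percentile of the array (log axis), on each hetero and knockout array, with 1 mark for each probe and array. Each probe is lower on the 3 knockout arrays than on the 3 hetero arrays, by 2.83-fold to 3.90-fold.

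Igf2, the fetal ligand, was dim. Its probe A_55_P2118173 read -3.99, -4.20 and -4.05 on the hetero arrays and -3.95, -3.75 and -2.44 on the knockout arrays. Knockout replicate 3 stood apart, with an unscaled signal of 88.2 where knockout replicates 1 and 2 had 30.0 and 36.3 and the hetero arrays 21.9 to 26.0. The difference was 0.70 ± 0.42 (95% interval -0.36 to 1.77, limma adjusted p = 0.231) and did not pass. Without knockout replicate 3 it was 0.23 ± 0.10 (adjusted p = 0.145).

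Both receptor genes were slightly lower in knockout spheres under the scaling used. Igf1r, the signalling receptor, read 2.92, 2.85 and 2.86 on the hetero arrays and 2.49, 2.59 and 2.55 on the knockout arrays (probe A_66_P105801). The groups did not overlap, and the difference was -0.34 ± 0.04 (adjusted p = 0.00179), 1.26-fold lower. Igf2r, the clearance receptor, read 4.64, 4.64 and 4.62 against 4.32, 4.31 and 4.34 as the mean of 10 spots of probe A_51_P125467. That difference was -0.31 ± 0.03 (adjusted p = 0.000462), 1.24-fold lower. With spike-in scaling Igf1r stood at 0.08 (adjusted p = 0.142) and Igf2r at 0.11 (adjusted p = 0.0326), both on the other side of 0.

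Of the binding proteins, Igfbp4, which inhibits IGF action and is cleaved by the protease PAPP-A, differed most. Its probe A_52_P257502 read 3.50, 3.61 and 3.51 on the hetero arrays and 1.22, 1.28 and 1.10 on the knockout arrays. The lowest hetero array was 2.22 above the highest knockout array. The difference was -2.34 ± 0.06 (95% interval -2.49 to -2.19, limma adjusted p = 8.85e-06), 5.07-fold lower. Across the alternatives tried it ran from -2.38 to -1.92 and kept its call in each.

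Igfbp2, a binding protein that favours IGF2, was dim and higher in knockout spheres on both of its probes. On A_55_P2056729 it read -2.87, -3.29 and -3.28 in hetero and -2.16, -2.30 and -2.32 in knockout, a difference of 0.89 ± 0.13 (adjusted p = 0.00388) or 1.85-fold. On A_66_P135391 it read -3.74, -3.35 and -3.37 against -2.53, -2.44 and -2.48, a difference of 0.999 ± 0.12 (adjusted p = 0.00168) or 2.00-fold. Hetero replicate 1 was the highest hetero array on the first probe and the lowest on the second. With normexp background correction the differences were 0.41 and 0.28 and both probes kept their call.

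Igfbp7, a relative of the family with low affinity for IGFs, read -2.02, -1.77 and -1.72 on the hetero arrays and -1.08, -0.89 and -1.14 on the knockout arrays (probe A_55_P2018611). All knockout arrays were above all hetero arrays, by 0.80 ± 0.11 on average (95% interval 0.53 to 1.08, adjusted p = 0.00269), 1.75-fold higher. The difference was 0.58 with normexp and 1.22 with spike-in scaling.

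Igfbp3, the main carrier of IGFs in blood, read 2.62, 2.58 and 2.52 in hetero and 2.41, 2.43 and 2.34 in knockout (probe A_52_P253179). The groups were 0.09 apart and the difference was -0.18 ± 0.04 (adjusted p = 0.0179), 1.13-fold lower. Before scaling, hetero arrays had a signal of 2388 to 2531 and knockout arrays one of 2432 to 2626, which overlap. The call was lost with median scaling (adjusted p = 0.164), without the filter (adjusted p = 0.058) and without hetero replicate 1 (adjusted p = 0.0552), hetero replicate 2 (adjusted p = 0.0542), knockout replicate 1 (adjusted p = 0.0503) or knockout replicate 3 (adjusted p = 0.0539), and spike-in scaling turned the difference to 0.24 (adjusted p = 0.00399).

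Igfbp6, which prefers IGF2, read 6.50, 6.53 and 6.54 in hetero and 6.28, 6.28 and 6.26 in knockout (probe A_66_P139546). The difference was -0.25 ± 0.03 (adjusted p = 0.00127), 1.19-fold lower, with no overlap. Unscaled, its signal ran from 37290 to 38748 on the hetero and from 36158 to 37846 on the knockout arrays. It missed the threshold with quantile scaling (-0.07, adjusted p = 0.1) and was 0.17 with spike-in scaling (adjusted p = 0.00362).

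Igfbp5, which rises in the involuting mammary gland, read 3.78, 3.79 and 3.79 in hetero and 3.89, 3.93 and 3.82 in knockout (probe A_52_P281702). The knockout arrays were all higher, by as little as 0.02, and the difference of 0.09 ± 0.04 (adjusted p = 0.103) did not pass. It passed with quantile scaling (0.15, adjusted p = 0.0272), with spike-in scaling (0.51, adjusted p = 0.000105), with an intensity trend (0.09, adjusted p = 0.0304) and without knockout replicate 3 (0.12, adjusted p = 0.0487).

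**Figure D3:**
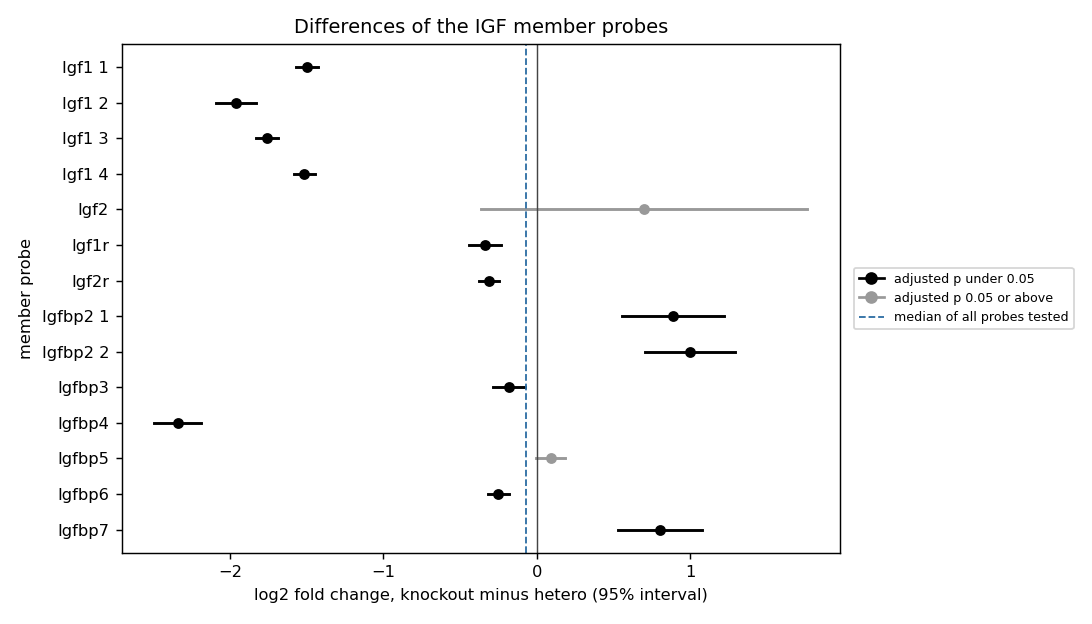
Log2 fold change of each member probe, knockout minus hetero (points), with 95% intervals from limma (bars) and the median of all probes tested, -0.07 (dashed). Black marks passed an adjusted p of 0.05, and the Igf2 interval, from -0.36 to 1.77, is the widest of the 14.

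**Figure D4:**
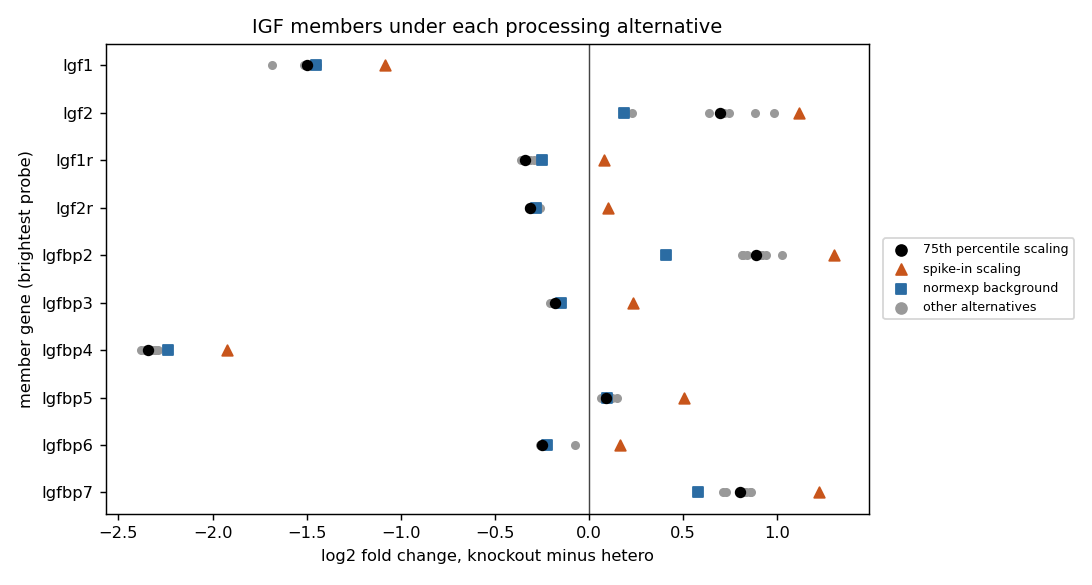
Log2 fold change of the brightest probe of each member under 75th percentile scaling (black), spike-in scaling (orange), normexp background correction (blue) and the other alternatives (grey). Igf1, Igfbp4, Igfbp2 and Igfbp7 keep their side of 0 under all of them, and Igf1r, Igf2r, Igfbp3 and Igfbp6 cross 0 with spike-in scaling.

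Among the members, Igfbp2 and Igfbp5 are adjacent genes, and their differences were 0.89 ± 0.13 and 0.09 ± 0.04, the second not called. Whether these 2 differ from each other was not tested. Igfbp3 lies next to Igfbp1, which was at least 1.97-fold higher in knockout with 0 of 3 hetero arrays well above background, and which did not pass with normexp (0.09, adjusted p = 0.229). The neighbours that follow were named after their values were seen. Next to Igfbp4, Tns4 rose by 2.88 ± 0.40 (adjusted p = 0.003), and next to Igfbp7, Adgrl3 rose by 2.39 ± 0.28 (adjusted p = 0.00162). On the other side of Igfbp4, Top2a stood at 0.42 ± 0.28 and did not pass (limma adjusted p = 0.273). On the other side of Igfbp7, Polr2b stood at -0.11 ± 0.03 (limma adjusted p = 0.032). Ins2, the insulin gene beside Igf2, differed by -0.19 ± 0.08 and did not pass (adjusted p = 0.116).

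The genes whose centred signals followed a member most closely were sought among 14553 genes, by the root mean square difference over the 6 arrays. For Igfbp4 these were Fcer1g (0.0497), Saa3 (0.0583) and Slc16a9 (0.0597), where the median gene was at 1.16. Fcer1g, an Fc receptor chain of myeloid cells, was also on the macrophage list. For Igf1 they were H2-K1 (0.0186), Serpina3n (0.0242) and Gldc (0.0242), with the median gene at 0.735. For Igfbp2 they were Tspyl5 (0.0586), Bend4 (0.0897) and Lpar2 (0.0898), and for Igfbp7 Dusp2 (0.0396), Frat1 (0.0416) and Mctp2 (0.0466). Likeness here rests mostly on 1 step between genotypes, so it describes the size of that step.

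The other genes of the pathway were followed in 4 lists, of which 83 of 88 genes were tested. Of these 25 were higher, 30 lower and 28 did not pass, with a median of -0.06 beside -0.03 over all genes. The same test passed 55.7% of all genes, 25.7% higher and 30.0% lower, and the counts of each list are read against these shares. The called genes of the lists split into 55 higher and 9 lower with spike-in scaling, so only the larger changes are named, and each named direction held under spike-in scaling.

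Of 17 tested modulators and relatives of the binding proteins, 5 were higher, 9 lower and 3 not called (median -0.20). Vtn, the matrix protein vitronectin that binds IGF2 and IGFBP5, was 18.1-fold lower (-4.18 ± 0.03, adjusted p = 8.96e-07). Esm1, an endothelial proteoglycan, was 4.60-fold higher (2.20 ± 0.26, adjusted p = 0.00186), and Igfals, the acid-labile subunit that holds IGF1 and IGFBP3 in blood, 2.24-fold higher with 1 of 3 hetero arrays above background (1.17 ± 0.19, adjusted p = 0.00547). With normexp, which moved these values by over 1.5 times in fold, Vtn stood at -3.29, Esm1 at 1.19 and Igfals at 0.16 on the log2 scale, and all 3 kept their call. The Igfbp1 bound of 1.97-fold is for the processed signal, and Igfbp1 did not pass with normexp. Igfbp1 passed the filter through the knockout arrays only, and its test used hetero values below background. No p-value is therefore given for the bound. Htra4, a serine protease, differed by -2.34 ± 0.68 (adjusted p = 0.0386), with 2 of 3 knockout arrays above background. The Htra4 call was lost in 8 of 17 alternatives, among them without the filter, with the slide row as a block, and without hetero replicate 1, 2 or 3 or knockout replicate 2 or 3. Leaving out 1 array gave -2.78 to -1.73 for Htra4 (adjusted p 0.0405 to 0.0993), normexp gave -0.74, and adjusted p over its alternatives ran from 0.00857 to 0.127.

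Of 24 tested genes of the insulin receptor family and its substrates, 7 were higher, 9 lower and 8 not called (median -0.08). Socs2, a feedback inhibitor of growth hormone signalling, was 2.81-fold higher (1.49 ± 0.05, adjusted p = 2.24e-05), and its other probes read 1.08 and 0.83. Grb14, an inhibitor of the insulin receptor, was 2.14-fold higher (1.10 ± 0.10, adjusted p = 0.000647), and stood at 0.24 with normexp, where it kept its call. Its relative Grb10 was lower (-0.79 ± 0.03, adjusted p = 3.76e-05), as were the cytokine feedback genes Socs3 (-0.93 ± 0.03, adjusted p = 3.07e-05) and Socs1 (-0.55 ± 0.07, adjusted p = 0.00181). Socs1 did not pass with spike-in scaling (-0.13, adjusted p = 0.169).

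Of 28 genes of the PI3K, AKT and mTOR cascade, 9 were higher, 6 lower and 13 not called (median 0.02). Deptor, an inhibitor of mTOR, was 2.78-fold higher (1.48 ± 0.07, adjusted p = 5.67e-05; normexp 0.95). The PI3K subunit genes Pik3r1, Pik3cb and Pik3r3 were higher by 1.44 ± 0.15, 1.07 ± 0.03 and 0.57 ± 0.03 (adjusted p = 0.00124, 1.01e-05 and 0.000128). Ddit4, a stress-induced inhibitor of mTOR, was lower by 1.40-fold (-0.48 ± 0.03, adjusted p = 0.000101), and did not pass with spike-in scaling (-0.06, adjusted p = 0.125).

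Of 14 tested regulators of IGF transcripts and genes of the growth hormone axis, 4 were higher, 6 lower and 4 not called (median -0.12). Ghr, the growth hormone receptor, was 1.67-fold lower (-0.74 ± 0.05, adjusted p = 0.000194), and Stat5a, a transcription factor that acts downstream of it, 1.73-fold lower (-0.79 ± 0.05, adjusted p = 0.000189). Prlr, the prolactin receptor, was 4.31-fold higher on its brightest probe (2.11 ± 0.09, adjusted p = 4.34e-05; normexp 1.44), while its other probe read 0.23 and did not pass (adjusted p = 0.0545). Igf2bp1, which binds Igf2 messenger RNA, was at least 5.33-fold higher with 0 of 3 hetero arrays above background (normexp 0.61). Igf2bp1 passed the filter through the knockout arrays only, and its test used hetero values below background. No p-value is therefore given beside this bound. The related gene Igf2bp2 was 1.45-fold lower (-0.54 ± 0.03, adjusted p = 0.000186).

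**Figure D5:**
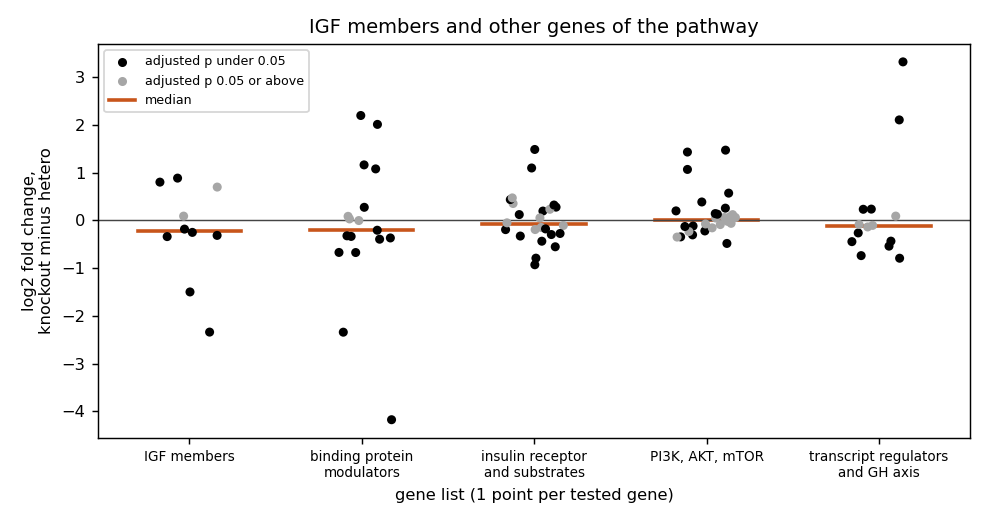
Log2 fold change, knockout minus hetero, of the 10 members and of the 83 tested genes of the 4 pathway lists (1 point per gene, brightest probe), with the median of each list as an orange line. The list medians lie between -0.22 for the members and 0.02 for the PI3K, AKT and mTOR genes, and genes lie on both sides of 0 in every list.

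Markers of other cell types moved between the same samples. In such bulk RNA, fewer cells of a type and less RNA per cell cannot be told apart. Of 17 tested macrophage and myeloid markers, 16 were lower and 1 higher (median -1.65), and their summed scaled signal was 110 to 113 in hetero and 78.0 to 79.6 in knockout. Such sums are given for 75th percentile scaling only and depend on it. Spike-in scaling, which moved the median of all genes by 0.42, would raise the knockout sums against the hetero sums. The sums also weight each gene by the brightness of its probe, and Itgam alone gave 72.1 to 75.5 of the hetero and 58.1 to 59.9 of the knockout sum. Of 19 fibroblast markers, 12 were lower and 5 higher (median -0.23, or 0.19 with spike-in scaling), and their sum was 3724 to 3992 and 3092 to 3166. The brightest macrophage markers, Itgam, Csf1r and Cd14, stood at -0.32, -0.85 and 0.60, and the brightest fibroblast markers, Dcn, Fn1 and Col1a2, at -0.67, -0.27 and -0.20, the last not called (adjusted p = 0.214; without hetero replicate 2 it was -0.33 and called, adjusted p = 0.00595). The values of Itgam, Fn1 and Col1a2 were above 0 with spike-in scaling, as was that of Col1a2 with quantile scaling. Dimmer probes of Csf1r read -0.58 and -0.27, the latter not called (limma adjusted p = 0.128), and those of Itgam -0.48 and -0.69. Macrophages and fibroblasts are among the known sources of IGF1. The part of their lists in the Igf1 and Igfbp4 difference was not tested.

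Of 19 mammary epithelial markers, 16 were higher, 1 lower and 2 not called (median 3.25), with a sum of 35.8 to 36.0 in hetero and 228 to 231 in knockout. The defining keratins Krt18, Krt5 and Krt14 were above background in both genotypes and higher in knockout by 3.44, 2.45 and 2.97. The rise of Igfbp2 and Igfbp7 stood beside this one, and its part in them was not tested. Endothelial markers were 3 higher and 4 lower of 10 (median -0.11, 0.31 with spike-in scaling; sum 27.0 to 27.6 and 26.8 to 28.4). Adipocyte markers were 0 higher and 4 lower of 6 (median -0.42; sum 154 to 159 and 68.8 to 72.2, most of it from Lpl), and lymphocyte markers 1 higher and 2 lower of 5 (median -0.15, 0.27 with spike-in scaling; sum 11.0 to 12.5 and 9.35 to 10.4). Spike-in scaling moved the median of all genes up by 0.42, about as much as the adipocyte median lay below 0. No tested marker was below background in both genotypes.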

How the data were processed

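RNA of 6 samples, 3 hetero and 3 knockout, was read on 6 one-colour arrays, grouped by the genotype in the labels. The deposited scanner files hold spot intensities made, per the submitters' processing notes, with Agilent Feature Extraction 10.7.3.1. The processed signal used here is background-subtracted and not scaled between arrays, per the file headers. The deposited value table holds intensities equal to that processed signal divided by 1 constant per array.

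From these, 3671 of 62976 spots per array (controls) and outlier spots were left out, and spots of a probe were averaged as log2. The log2 signal minus the array's 75th percentile was fitted with lmFit and eBayes (limma 3.58.1, R 4.3.3) without covariates, on probes well above background on at least 3 of 6 arrays, with Benjamini-Hochberg adjustment over 35442 probes. A gene takes its brightest probe. Where all arrays of a genotype were below background, the fold is a bound against the higher of the probe's value and the lowest signal well above background. Names came from RefSeq accessions (GRCm38.p6 table; the array header names mm9, so no coordinates were taken from it). The promoter windows are a separate RefSeq table on GRCm38.p6. Genes named are all members, Frs3, up to 5 called genes with non-overlapping groups and the largest change per pathway list, the brightest markers per list and, for the 4 members with the largest called changes, the 3 most alike genes. Members and lists were chosen with earlier results of these data known. The mean-signal column that normexp was planned on was not used here, so median signals with an offset of 50 took its place. All 6 arrays lay on 1 slide.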

Additional observations from a re-analysis of the deposited data

How the results depend on the processing

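Members called ran from 7 to 9 of 10 genes under 19 alternatives and from 11 to 13 of 14 probes under 17, and Igf1, Igfbp4, Igfbp2 and Igfbp7 kept direction and call in each. With spike-in scaling the sign turned for Igf1r (0.080), Igf2r (0.11), Igfbp3 (0.24), Igfbp6 (0.17), Itgam (0.10), Col1a2 (0.22) and Fn1 (0.15) and for the medians of fibroblast (0.19), endothelial (0.31) and lymphocyte markers (0.27); with quantile scaling Col1a2 turned to 0.071. Spike-in scaling moved the median of all genes by 0.42. Of 258 refits of member probes, 243 kept direction and side of the threshold, 7 lost a call, 4 gained one and 4 turned. Leaving out 1 array gave -1.51 to -1.49 for Igf1, -2.38 to -2.29 for Igfbp4, 0.82 to 1.03 for Igfbp2, 0.71 to 0.86 for Igfbp7 and 0.23 to 0.99 for Igf2, which passed under none of the alternatives (adjusted p 0.0638 to 0.406). Same-numbered arrays did not deviate together (correlations of -0.15, -0.00 and -0.00 across probes). The labels do not say whether a number pairs the samples, and these correlations cannot exclude it. With a replicate block 12 member probes and 8 member genes (2 higher, 6 lower), 13339 probes, 7125 genes and 46 pathway genes passed; Htra4 did not (adjusted p = 0.127). With normexp, which has an offset of 50, Igf2, Igfbp2 and Igfbp7, all well above background on all 6 arrays, stood at 0.19, 0.41 and 0.58 in place of 0.70, 0.89 and 0.80. The cause was not tested.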
